A study of Homo sapiens with 18 samples.

Results

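The genes described here encode the proteins of the cytosolic ribosome. They were taken by symbol, as every RPL or RPS gene with a plain number (with A or X as the only letter allowed after it, and without RPS27A), together with RPLP0, RPLP1, RPLP2 and RPSA, where the mean in either line was at least 1 CPM (a count scaled to a common library size). The rule found 76 genes, 46 of the large and 30 of the small subunit, among 58051 gene identifiers, and all 76 symbols that matched were far above the CPM minimum. The rule uses no measured difference, though it was set with earlier results of these data known.

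Each ribosome holds a single copy of nearly all of these proteins, so cells make them in closely matched amounts. Much of this matching is known to happen in translation, through a run of C and T bases that starts the mRNA (the terminal oligopyrimidine, or TOP, motif) and responds to growth signalling, and through decay of proteins left unassembled. Their mRNAs are short and among the most abundant of growing cells, and several of the proteins have roles outside the ribosome.

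RNA was sequenced from SKMEL2 and SKMEL30, NRAS-mutant melanoma lines that carry a lentiviral doxycycline-inducible (tet-ON, pTRIPZ) construct of PPP2R3B with a Myc tag, which encodes a regulatory subunit of protein phosphatase 2A. The 6 groups of 3 libraries were each line uninduced and after 6 h and 18 h of doxycycline, the times that the labels give (the text of the study names a different later time). Uninduced cells carry the construct too, and no library shows doxycycline without it, so drug and gene cannot be told apart. Each line is a single transduced, puromycin-selected line, and the labels do not say that replicates were separate cultures, so p-values measure the spread between these libraries, which may be technical.

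The libraries held 13402645 to 22383470 expected counts (reads shared out among the transcripts they fit). PPP2R3B rose from a mean of 20.6 CPM uninduced to 425 at 6 h and 473 at 18 h in SKMEL2, and from 20.9 to 540 and 615 in SKMEL30. All 8 melanocytic markers were above 1 CPM in all 6 groups, with sums of 4211 to 4919 CPM in SKMEL2 and 8793 to 9316 in SKMEL30. The sums of the marker lists of other cells were at most 7.20 and 33.5 CPM for fibroblasts (mostly LUM in SKMEL30) and 2.60 to 4.35 and 0.109 to 0.401 for leukocytes, with CD14 above 1 CPM in SKMEL2 and CD3E at 0 in SKMEL30. All 5 epithelial markers were above 1 CPM in SKMEL2, with sums of 104 to 129 CPM. In SKMEL30, KRT18 and CDH1 were above 1 CPM in all groups and KRT5 and KRT14 in the induced groups, with sums of 109 to 113 CPM uninduced, 108 to 179 at 6 h and 134 to 144 at 18 h, and the part of these markers in the results was not tested. Among SKMEL2 libraries, uninduced replicate 3 and 6 h replicate 2 stood apart, with 9.49% and 8.76% of counts on mitochondrially encoded genes against 6.42% to 7.14% in the other 7. In SKMEL30 this share was 6.80% to 7.29%.

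Most members with a listed start of transcription had a run of C and T bases across it, where a TOP motif would lie. The bases around the start of transcription are shown for members that the results below turn on, from RefSeq on GRCh38.p14, 5′ to 3′ on the strand of the gene, 30 bases with the listed start as base 16. Capitals mark the run of C and T bases that covers the start, where it has at least 8 bases. The first 7 are members that differed most between the lines (RPS3, RPL14 and RPS25 higher in SKMEL2, the other 4 lower), the next 4 are members that swung most or against the rest between libraries or that lay lower after induction, and the last 4 hold no such run.
RPS3, chr11:75399503-75399532, plus strand: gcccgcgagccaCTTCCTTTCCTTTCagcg
RPL14, chr3:40457324-40457353, plus strand: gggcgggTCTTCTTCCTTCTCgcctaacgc
RPS25, chr11:119018329-119018358, minus strand: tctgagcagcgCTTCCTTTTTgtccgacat
RPS10, chr6:34426055-34426084, minus strand: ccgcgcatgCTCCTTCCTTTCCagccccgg
RPL21, chr13:27251543-27251572, plus strand: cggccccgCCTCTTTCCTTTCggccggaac
RPS18, chr6:33272060-33272089, plus strand: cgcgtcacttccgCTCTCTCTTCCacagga
RPL19, chr17:39200308-39200337, plus strand: gagcgagCTCTTTCCTTTCgctgctgcggc
RPS24, chr10:78033848-78033877, plus strand: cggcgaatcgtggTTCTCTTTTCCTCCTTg
RPS21, chr20:62387088-62387117, plus strand: ggtgactagctgCTTCCTTTCTCTCTCgcg
RPL34, chr4:108620561-108620590, plus strand: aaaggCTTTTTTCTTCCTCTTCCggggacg
RPL26, chr17:8383179-8383208, minus strand: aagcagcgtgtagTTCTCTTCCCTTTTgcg
RPL15, chr3:23916530-23916559, plus strand: ggcgctggggcctgctggaggagcttcacg
RPL32, chr3:12840436-12840465, minus strand: ggtgaggtgacccttgacctcctgggatcg
RPS28, chr19:8321481-8321510, plus strand: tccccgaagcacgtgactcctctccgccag
RPS29, chr14:49598696-49598725, minus strand: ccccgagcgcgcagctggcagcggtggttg

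The table of starts held 61 of the 76 members, and 44 of these (72.1%) had such a run. The median length over all 61, with shorter runs and none included, was 11 bases. Over all genes in the table the share was 1623 of 27305 (5.94%). Among the other TOP mRNAs that were listed (translation factors, NPM1, RACK1, TPT1 and others) it was 14 of 22 (63.6%), and among mitochondrial ribosomal protein genes 2 of 69 (2.90%). Runs were searched on the strand of the gene only, and their bases before the listed start counted too. In RPL19 the run of 12 bases begins at -8 from the start. The counts of runs are thus not counts of TOP motifs in the mRNA. A listed start can lie some bases or further from the start a cell uses. The RPL32 window lies inside the gene, which on the minus strand begins at 12841582. A window with no capitals thus says only that no such run covers the listed start. In the RPS28 window, for one, a run of C and T bases begins just after it.

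The 76 genes held between 3.48% and 4.11% of all counts in every library. In SKMEL2 the share was 3.70%, 3.88% and 3.49% in the uninduced libraries, 3.81%, 3.64% and 4.11% at 6 h, and 3.75%, 3.76% and 3.77% at 18 h. In SKMEL30 it was 3.61%, 3.60% and 3.70% uninduced, 3.73%, 3.53% and 3.65% at 6 h, and 3.62%, 3.69% and 3.48% at 18 h. The groups of each line overlapped, and the highest and the lowest share of SKMEL2 lay in neighbouring groups. The means were 3.69% ± 0.192 (SD, n = 3), 3.85% ± 0.237 and 3.76% ± 0.0126 in SKMEL2 and 3.64% ± 0.0546, 3.64% ± 0.102 and 3.60% ± 0.105 in SKMEL30, so no step between times exceeded the spread within the more variable group. Without RPS3 alone the set held 3.58% in SKMEL2 and 3.59% in SKMEL30. In bulk RNA, a lower share in all cells and fewer cells with a high share cannot be told apart.

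**Figure D1:**
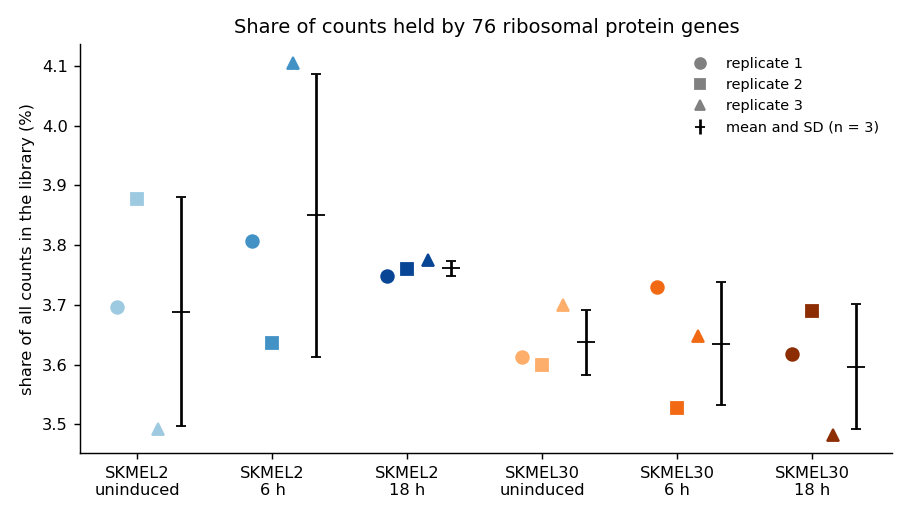
Share of all expected counts held by the 76 ribosomal protein genes (y axis, %, not starting at 0) in each library of the 6 groups, with the mean and SD of 3 libraries beside the points. SKMEL2 libraries lie between 3.49% and 4.11% and SKMEL30 libraries between 3.48% and 3.73%, and within each line the 3 groups overlap.

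Single members differed widely in level although their products are needed in equal number. Across members the mean over the 9 libraries of a line ran from 62.1 to 1837 CPM in SKMEL2 (a 29.6-fold range, median 391) and from 96.6 to 1836 CPM in SKMEL30 (median 395). The highest were RPS3, at the entry of the mRNA channel, RPL15 and RPL4 in SKMEL2 (1837, 1220 and 1176 CPM), and RPL4, the stalk base protein RPLP0, and RPL3 in SKMEL30 (1836, 1382 and 1371 CPM). The lowest were RPS28, RPS29 and RPL36A in both lines, at 62.1, 83.5 and 109 CPM in SKMEL2 and 98.5, 96.6 and 101 CPM in SKMEL30. The top 5 members held 16.8% and the top 20 held 47.3% of the counts of all 76.

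Per kilobase of coding sequence the order changed, since coding lengths ran from 75 to 1281 bases. The counts cover the whole mRNA, so bases outside the coding sequence raise this value most where that sequence is short. Their part in the order was not tested. On that scale the median level was 902 CPM per kb in SKMEL2 and 862 in SKMEL30. RPL41, whose product is among the smallest of human proteins, led both lines (3079 and 3420 CPM per kb, over 75 coding bases). RPS3 and RPL39, which lines the exit tunnel, followed in SKMEL2 (2521 and 2110 CPM per kb), and RPL39 and RPLP1 of the stalk in SKMEL30 (2541 and 2526). The lowest per kilobase were RPL21, RPS28 and RPL36A in SKMEL2 (261, 299.8 and 342) and RPL36A, RPL9 and RPS26 in SKMEL30 (316, 363 and 379). RPL36A, RPL9, RPL21 and RPS28 are also among the 6 members, with RPL23A and RPL22, for which listed pseudogenes took over 10% of the counts of gene and pseudogenes together (52.3%, 44.4%, 39.3%, 20.2%, 48.4% and 17.4%). The levels of these 6 are thus uncertain, as are the spreads and differences given for them below. The share was under 1% for 52 members.

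Members with known roles outside bulk translation were read for every comparison. RPS6, the substrate of S6 kinase, averaged 829 CPM in SKMEL2 and 569.5 in SKMEL30. RPL5 (802 and 785 CPM) and RPL11 (568 and 587), which bind MDM2 as part of a 5S RNA particle, stood at nearly the same level in the lines. The stalk proteins RPLP0, RPLP1 and RPLP2 averaged 1131, 577 and 289 CPM in SKMEL2 and 1382, 864 and 231 in SKMEL30. RPSA, also known as a laminin receptor, averaged 678 and 735, and RPS14 and RPS19, lost in 5q- syndrome and mutated in Diamond-Blackfan anaemia, 584 and 257 in SKMEL2 and 481 and 306 in SKMEL30. The X-linked RPS4X averaged 829 and 797. RPL22, RPL39 and RPS27, which have expressed paralogs, averaged 304, 323 and 240 CPM in SKMEL2 and 396, 389 and 333 in SKMEL30. After induction the log2 fold changes of these 13 genes lay between -0.08 and 0.16 in both lines and at both times.

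Induction of PPP2R3B for 6 h or 18 h changed no ribosomal protein mRNA beyond the threshold in either line. Of 76 members, 0 were called at an adjusted p under 0.05 in any of the 4 comparisons with uninduced cells by edgeR's quasi-likelihood test, with Benjamini-Hochberg adjustment over all genes tested, and DESeq2 called 0 as well. Over all genes the share called was 0.0124% at 6 h and 0.0124% at 18 h in SKMEL2, and 0.206% and 0.293% in SKMEL30. At an unadjusted p under 0.05 by edgeR, 2 and 0 members were found in SKMEL2 at 6 h and 18 h, where the shares of all genes were 3.37% and 4.65%, and 0 and 3 members in SKMEL30, where they were 6.44% and 9.14%. DESeq2 gave 3, 0, 1 and 4, where its shares of all genes were 2.04%, 3.27%, 2.81% and 4.33%. The log2 fold changes ran from -0.08 to 0.35 and from -0.15 to 0.27 in SKMEL2 at 6 h and 18 h, and from -0.05 to 0.06 and from -0.12 to 0.07 in SKMEL30. The median standard error of a member's fold change was 0.0751 in SKMEL2 and 0.0354 in SKMEL30.

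In SKMEL2 at 6 h, 71 of the 76 lay higher than in uninduced cells and 5 lower, with a median log2 fold change of 0.08, while 50.9% of all genes lay higher and 49.1% lower. This median rested on few libraries. It was 0.03 without 6 h replicate 3 and 0.05 without uninduced replicate 3. At 18 h the median was 0.01 (41 higher and 35 lower, against 50% and 50% of all genes), or 0.03 (50 and 26) with library totals in place of TMM factors, and -0.03 without uninduced replicate 3. In SKMEL30 it was 0.00 at 6 h (42 and 34, against 50.3% and 49.7%) and -0.01 at 18 h (31 and 45, against 50.3% and 49.7%).

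**Figure D2:**
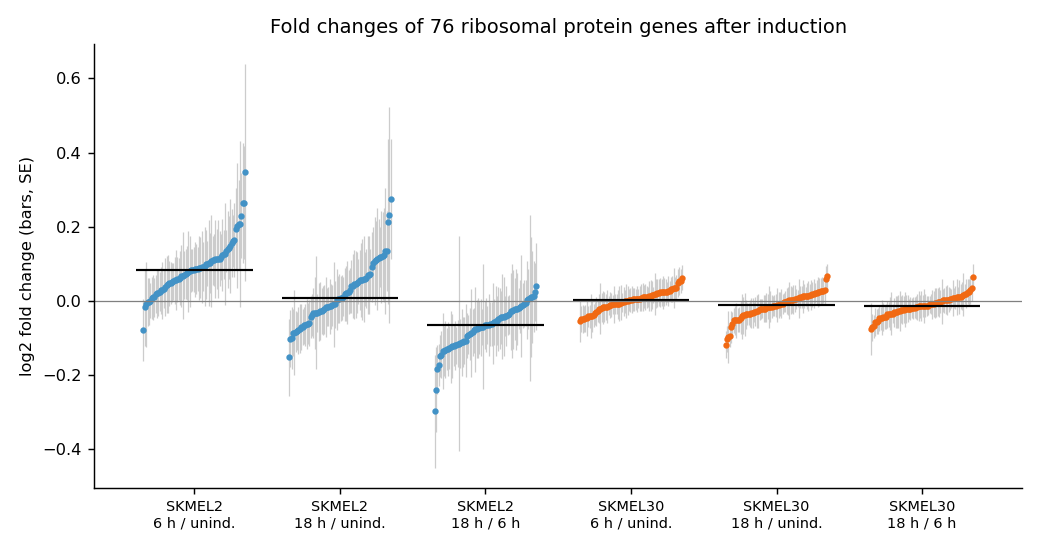
Log2 fold change of each of the 76 members (points, ordered by value, with SE bars) in the 6 comparisons within a line, and their median (black line). Points of SKMEL30 lie between -0.12 and 0.07, those of SKMEL2 between -0.30 and 0.35, and the median of SKMEL2 is 0.08 at 6 h over uninduced cells and -0.07 at 18 h over 6 h.

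The members with the smallest p values give the scale of these shifts. RPL23, at the subunit interface, had 462, 488 and 455 CPM in the uninduced SKMEL2 libraries, 494, 506 and 540 at 6 h, and 461, 454 and 456 at 18 h. RPS26, beside the mRNA exit channel, had 118, 127 and 123 CPM uninduced, 130, 129 and 151 at 6 h, and 127, 129 and 132 at 18 h. The 6 h libraries were above the uninduced ones for both genes, with no overlap, while at 18 h RPL23 was back among or below the uninduced values. The log2 fold changes at 6 h were 0.14 ± 0.0569 and 0.16 ± 0.0693 (SE, adjusted p = 0.989 for both, edgeR). These were the 2 members of 76 with all 6 h libraries higher, and 0 had all of them lower, where the shares of all genes were 3.21% and 3.6%.

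At 18 h in SKMEL2 the smallest p values belonged to RPS28 and RPS6. RPS28, near the mRNA exit site, had 57.6, 62.2 and 44.2 CPM uninduced, 64.9, 49.3 and 82.1 at 6 h, and 67.2, 64.7 and 66.4 at 18 h, so that the 18 h libraries lay above the uninduced ones and the 6 h libraries spread across both. Its log2 fold change at 18 h was 0.27 ± 0.161 (adjusted p = 0.987, edgeR), or 0.14 without the 2 SKMEL2 libraries that stood apart. RPS6 had 817, 835 and 876 CPM uninduced, 821, 874 and 845 at 6 h, and 785, 792 and 816 at 18 h, just below the uninduced range, with a log2 fold change at 18 h of -0.08 (adjusted p = 0.987, edgeR). At 18 h, 2 members had all libraries above the uninduced ones and 5 all below, where the shares of all genes were 7.39% and 6.89%.

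In SKMEL30 at 18 h the smallest p values belonged to RPL34 and RPS13. RPL34, a large subunit protein (chromosome 4, 108620576 to 108630484 on GRCh38) had 142, 141 and 145 CPM uninduced, 140, 138 and 136 at 6 h, and 135, 135 and 124 at 18 h. All 6 induced libraries lay below all 3 uninduced ones, and the 18 h libraries below those of 6 h. The log2 fold change at 18 h was -0.12 ± 0.0359 (SE, adjusted p = 0.289 by edgeR, between 0.0897 and 1 over the alternatives), so it did not pass the threshold. RPS13, of the small subunit, had 289, 284 and 304 CPM uninduced, 294, 283 and 284 at 6 h, and 273, 281 and 267 at 18 h, again with no overlap at 18 h (log2 fold change -0.09 ± 0.0313, adjusted p = 0.349, edgeR). The third member under 0.05 was RPS12 (-0.10, adjusted p = 0.355, edgeR). At 18 h, 1 member had all libraries above the uninduced ones and 4 all below, where the shares of all genes were 7.92% and 8.09%.

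At 6 h in SKMEL30, RPS24 and RPL22 had the smallest p values. RPS24, one of the proteins mutated in Diamond-Blackfan anaemia, had 619, 612 and 647 CPM uninduced, 677, 661 and 626 at 6 h, and 666, 664 and 639 at 18 h. RPL22, an RNA-binding protein that the ribosome can lack, had 382, 388 and 399 uninduced, 415, 394 and 405 at 6 h, and 404, 399 and 376 at 18 h. Both sets of 6 h libraries overlapped the uninduced ones, and the log2 fold changes were 0.06 ± 0.0332 (adjusted p = 0.786, edgeR) and 0.05 ± 0.0326 (adjusted p = 0.820, edgeR). At this time 0 members had all libraries above the uninduced ones and 2 all below, where the shares of all genes were 5.41% and 5.88%.

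Between 18 h and 6 h, 0 members were called in either line by edgeR or DESeq2, where the shares of all genes called by edgeR were 0% in SKMEL2 and 0.02% in SKMEL30. In SKMEL2, 68 of 76 lay lower at 18 h than at 6 h with a median log2 fold change of -0.07, while 52.1% of all genes lay lower, and 7 members passed an unadjusted p under 0.05 (background 2.59%) by edgeR and 9 (background 1.63%) by DESeq2. Among them were RPL23 (-0.17), RPS27 (-0.15), RPL30 (-0.14), RPS4X (-0.12), RPL38 and RPL17 (-0.13 each), and their adjusted p values were 0.9998 (edgeR). No member had all 18 h libraries above the 6 h ones and 13 had all below, where the shares of all genes were 4.13% and 3.74%. The median was -0.01 without 6 h replicate 3, and -0.11 without 6 h replicate 2 or without both libraries that stood apart. With library totals in place of TMM factors it was -0.03, with 56 lower and 20 higher. In SKMEL30, 1 member passed an unadjusted p under 0.05 by edgeR (RPS13, -0.07, background 5.56%) and 0 by DESeq2 (background 2.17%), and the median was -0.01. There, 0 members had all 18 h libraries above the 6 h ones and 2 all below, where the shares of all genes were 5.51% and 5.62%.

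The difference of the responses between the lines was also tested. No member was called by edgeR or DESeq2 at 6 h or 18 h, where the shares of all genes called by edgeR were 0% and 0.00584%, and 0 and 1 members passed an unadjusted p under 0.05 by each tool (edgeR: RPL38 at 18 h, -0.14 on the log2 scale, SKMEL2 minus SKMEL30; backgrounds 4.91% and 5.16%, and 3.47% and 3.81% by DESeq2). The median difference was 0.07 at 6 h, with 66 of 76 above 0 against 48.9% of all genes, and 0.02 at 18 h, with 44 above 0 against 49.1%. The value at 6 h was 0.02 without SKMEL2 6 h replicate 3, 0.13 without its replicate 2, and 0.05 without SKMEL2 uninduced replicate 3 or without SKMEL30 6 h replicate 2.

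The ribosomal protein mRNAs moved together from library to library within groups. For each gene the mean log2 CPM of its group was subtracted, and the Pearson correlation of these deviations over the 9 libraries of a line was averaged over pairs of members. It was 0.38 in SKMEL2 (0.32 within the large and 0.48 within the small subunit) and 0.63 in SKMEL30 (0.60 and 0.67), against 0.0002 and 0.0003 over all genes tested. In SKMEL2 it was higher than in the members for mitochondrially encoded transcripts (0.75) and snoRNA host genes (0.42), and lower for proteasome (0.29) and respiratory chain subunits (0.23). In SKMEL30 these groups had 0.34, -0.03, 0.10 and 0.21. These points share the library, its depth and its preparation, and the values are a description. Without the 2 libraries that stood apart the value of the members in SKMEL2 was 0.523.

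The shifts themselves were small. In SKMEL2 the median deviation of the members was 0.01, 0.07 and -0.08 on the log2 scale in uninduced replicates 1, 2 and 3, and -0.04, -0.08 and 0.12 at 6 h, with 73 of 76 above the mean of the group in 6 h replicate 3. At 18 h it was 0.00, -0.01 and 0.01. The 18 h libraries of SKMEL2 were thus close together, while its other 2 groups spread. In SKMEL30 it was 0.00, -0.02 and 0.02 uninduced, 0.05, -0.06 and 0.00 at 6 h, and 0.01, 0.04 and -0.05 at 18 h. Here nearly every member took part: 73 of 76 were above in 6 h replicate 1, 73 below in 6 h replicate 2, 76 above in 18 h replicate 2 and 75 below in 18 h replicate 3. Over all genes, 49.5% to 51.8% were above the mean of their group in any library. The library with the lowest total had the highest deviation in all 3 groups of SKMEL30 and in the 6 h group of SKMEL2, and the part of depth in the swings was not tested.

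**Figure D3:**
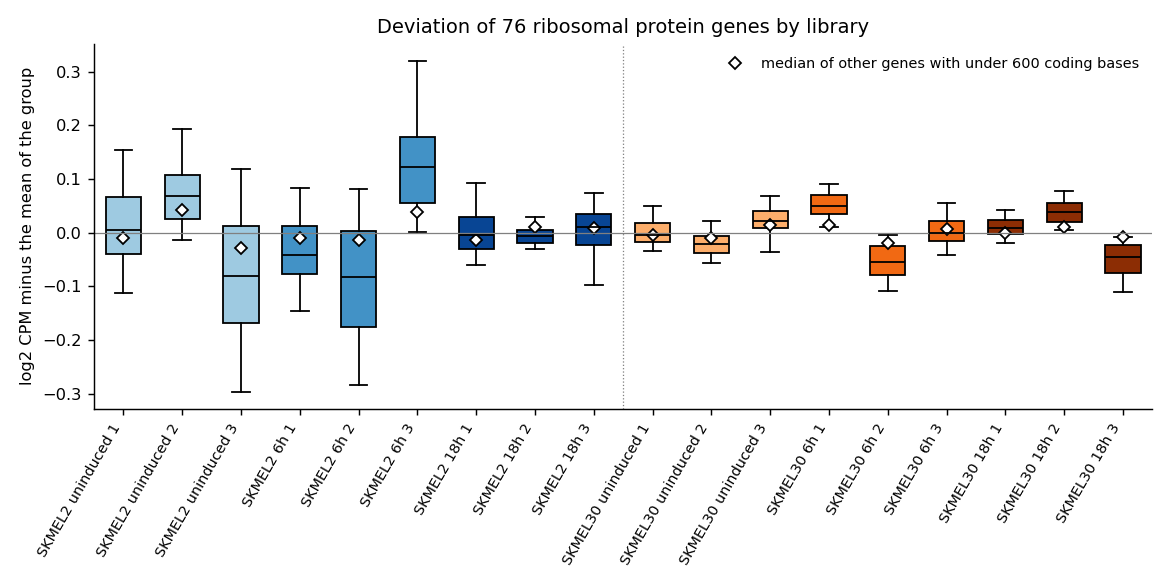
Deviation of the 76 members from the mean of their group (log2 CPM, y axis) in each of the 18 libraries, as boxes of the quartiles with the median and whiskers from the 5th to the 95th percentile, and the median of other genes with under 600 coding bases (diamonds). The boxes lie highest in SKMEL2 6 h replicate 3, with a median of 0.12, and the SKMEL30 boxes are narrow, with medians from -0.06 to 0.05.

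The library medians of other groups of genes moved with those of the members. The library medians of the nuclear-encoded respiratory chain subunits correlated with those of the members at 0.95 in SKMEL2 and 0.97 in SKMEL30 (9 libraries each), those of mitochondrial ribosomal proteins at 0.77 and 0.93, those of proteasome subunits at 0.92 and 0.76, and those of all other genes with under 600 coding bases (1567 and 1512 genes) at 0.89 and 0.92. The other TOP mRNAs gave 0.25 and 0.77, ribosome biogenesis factors -0.30 and 0.21, snoRNA host genes 0.43 and 0.62, and mitochondrially encoded transcripts -0.65 and 0.02. The swings were thus also seen in mRNAs of other complexes. Length moved with them inside the set too. In SKMEL2 the median SD within a group was 0.128 on the log2 scale for the 9 members with at most 300 coding bases, 0.103 for the 45 with up to 600 and 0.0711 for the 22 longer ones, and in SKMEL30 it was 0.0516, 0.0502 and 0.0369. The part of length in the swings was not tested.

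Members differed in how steady they were. The SD within a group had a median of 0.0861 (log2) in SKMEL2 and 0.0476 in SKMEL30. It was largest for RPS29, RPS21 and RPS12 in SKMEL2 (0.485, 0.353 and 0.263), and for RPS29, RPS15A and RPL27 in SKMEL30 (0.106, 0.0958 and 0.0957). The steadiest were RPL5, RPS4X and RPL4 in SKMEL2 (0.0142, 0.0281 and 0.0296) and RPL23A, RPL6 and RPL19 in SKMEL30 (0.0103, 0.0194 and 0.0216). The doubt about pseudogenes given above applies to RPL23A. The deviations of 54 members in SKMEL2 and 72 in SKMEL30 correlated above 0.5 with the median of the other members, while 10 in SKMEL2 and only RPL5 in SKMEL30 (-0.07) were below 0. The lowest in SKMEL2 were RPL26 (-0.82), RPS24 (-0.75) and RPL32 (-0.49).

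The SKMEL2 libraries that stood apart by mitochondrial share, uninduced replicate 3 and 6 h replicate 2, divided the members. RPS29, a small zinc-binding protein of the 40S head, had 86.6, 88.3 and 43.7 CPM uninduced, 93.8, 54.8 and 128 at 6 h, and 100.4, 83.2 and 72.4 at 18 h. RPS21 had 211, 208 and 116, then 218, 142 and 256, then 221, 208 and 192. RPS12 had 377, 384 and 237, then 399, 305 and 443, then 388, 369 and 341. For all 3 genes these 2 libraries were the lowest of the 9, and 6 h replicate 3 was the highest.

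RPS24 went the other way, with 497, 529 and 646 CPM uninduced, 515, 642 and 493 at 6 h, and 491, 501 and 515 at 18 h, the same 2 libraries being the highest. RPL26, known to bind the mRNA of p53, had 287, 295 and 298, then 288, 314 and 232, then 278, 273 and 271, again highest in these libraries. RPL5 stayed level, with 801, 827 and 817, then 810, 825 and 806, then 770, 773 and 790. In all, 34 of 76 members (44.7%) were lower in both of these libraries than in each of the other 7, where the share of all genes was 7.67%, and 10 (13.2%) were higher in both, where it was 9.89%. The 10 were RPL6, RPL11, RPL12, RPL14, RPL26, RPL28, RPL32, RPL35, RPS6 and RPS24. The 2 libraries were chosen after their values were seen, so these counts are a description.

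**Figure D4:**
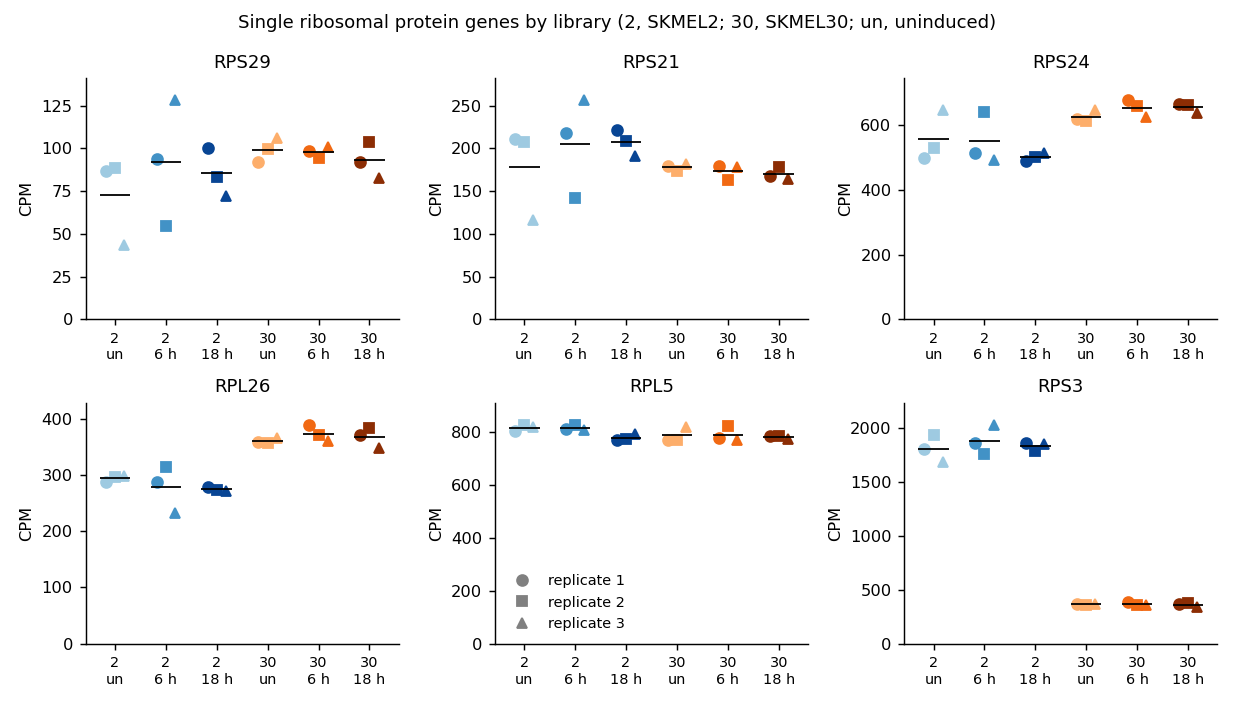
CPM (y axis, from 0) of 6 members in each library of the 6 groups, with the group mean as a line and the replicate as the shape of the point. RPS29 and RPS21 are lowest and RPS24 highest in SKMEL2 uninduced replicate 3 and 6 h replicate 2, RPL5 is level, and RPS3 lies at 1682 to 2027 CPM in SKMEL2 and at 344 to 390 in SKMEL30.

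Before induction the lines differed far more than any induced group did. Between uninduced SKMEL2 and uninduced SKMEL30, 51 of 76 members were called by edgeR, 15 higher and 36 lower in SKMEL2, or 67.1%, where 75.9% of all genes were called (40.1% higher and 35.8% lower). The share of members called was thus near that of all genes. DESeq2 called 52, where its share of all genes was 73.7%. The median log2 fold change was -0.14 over the members and 0.05 over all genes, and 38 members lay beyond 0.3 in either direction. With library totals in place of TMM factors the median of all genes moved by 0.10 and the calls were 23 higher and 29 lower, so the balance of directions depends on the scaling. The groups of 3 libraries did not overlap for 13 members higher and 37 lower in SKMEL2, where the shares of all genes were 41.2% and 37.1%. Each side is a single line, so the test measures the libraries of these lines and no other.

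RPS3 differed most. It had 1799, 1932 and 1682 CPM in uninduced SKMEL2 and 369, 360 and 368 in uninduced SKMEL30, so that the groups lay far apart. The means were 1804 ± 125 and 366 ± 5.36 CPM (SD, n = 3), a 4.94-fold difference (log2 2.30 ± 0.0594 SE, adjusted p = 1.91e-17, edgeR). Over all 9 libraries of each line RPS3 lay between 1682 and 2027 CPM in SKMEL2 and between 344 and 390 in SKMEL30, and its induced fold changes were not called. RPS3 (ENSG00000149273) lies on the plus strand of chromosome 11, 75399518 to 75422302 on GRCh38.

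RPL15 followed, with 1175, 1213 and 1222 CPM against 682, 682 and 689 (1.76-fold, log2 0.81 ± 0.0399, adjusted p = 3.64e-13, edgeR). It lies on chromosome 3, 23916545 to 23924631. RPL32 had 577, 604 and 658 CPM against 372, 378 and 387 (log2 0.69 ± 0.0529). RPS25, which viral internal ribosome entry sites need, had 329, 333 and 287 against 201, 202 and 213 (0.62 ± 0.0496), and RPL14 had 655, 712 and 748 against 455, 458 and 473 (0.61 ± 0.0516). In none of these did the lines overlap.

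In the other direction, RPS10, near the mRNA entry of the small subunit, had 235, 257 and 198 CPM in SKMEL2 and 468, 463 and 481 in SKMEL30 (2.05-fold lower, log2 -1.04 ± 0.0967, adjusted p = 8.02e-09, edgeR). RPL21 had 125, 132 and 112 against 236, 236 and 255 (1.97-fold lower, -0.98 ± 0.0735, adjusted p = 3.11e-10, edgeR), with the doubt about its pseudogenes given above. RPS28, with the same doubt, had 57.6, 62.2 and 44.2 against 105, 104 and 91.9 (-0.88 ± 0.127). RPS18, in the head of the small subunit, had 624, 639 and 477 against 991, 975 and 1039 (-0.79 ± 0.086). RPL19, which helps to bridge the subunits, had 555, 593 and 598 against 994, 981 and 995 (-0.77 ± 0.0495, adjusted p = 2.78e-11, edgeR). All SKMEL2 values were below all SKMEL30 values for these genes, and uninduced replicate 3 of SKMEL2, one of the libraries that stood apart, was the lowest for RPS10, RPL21, RPS28 and RPS18.

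Among the members with other roles, RPS6 was higher in SKMEL2 (log2 0.57), as were RPLP2 (0.24) and RPS14 (0.20). RPLP1 (-0.68), RPS27 (-0.48), RPL22 (-0.39), RPS19 (-0.36), RPLP0 (-0.34), RPL39 (-0.34) and RPSA (-0.16) were lower, so the stalk proteins did not move as a unit. RPL5 (0.05), RPL11 (-0.02) and RPS4X (0.05) were not called (adjusted p = 0.228, 0.713 and 0.212, edgeR).

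Among members, the direction of the difference varied between chromosomes. All 5 members on chromosome 11 were called higher in SKMEL2 (RPS3, RPS13, RPS25, RPL27A and RPLP2), as were 4 of 7 on chromosome 3 with 1 lower. All 4 on chromosome 6, all 3 on chromosome 15 and 4 of 6 on chromosome 17 were called lower. On chromosome 19, 2 of 12 were called higher and 6 lower. The shares of other genes called on each chromosome are not given, so these counts cannot be read as particular to the members. Of the other genes, called or not, 56.7% lay higher on chromosome 11, 73.0% on chromosome 3 and 56.3% on chromosome 19. On chromosomes 6, 15 and 17 the shares were 49.4%, 43.4% and 32.1%. The median log2 fold change of the other genes was 0.44 on chromosome 3, 0.18 on chromosome 11, -0.01 on chromosome 6, -0.21 on chromosome 15 and -0.38 on chromosome 17. On chromosome 19 it was 0.16 while the median of the members was -0.14. Both medians had the same sign on 15 of the 21 chromosomes with members, and opposite signs on chromosomes 9, 12, 14, 16, 19 and X.

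The median over other genes within 5 Mb of each member had the sign of the member's own fold change for 61 of 76. These include members near 0, such as RPS21 (-0.002) and RPL11 (-0.02). The share of all genes that match their neighbours in this way is not given, so the count cannot be read as particular to the members. Over the 76 members, Spearman's correlation with this median was 0.64 and Pearson's 0.37, or 0.72 without RPS3. These are descriptions chosen after the values were seen, and members in the same region share neighbours. For RPL15 the neighbours had a median of 1.01, for RPL14 0.71, for RPL32 0.64 and for RPS25 0.57. For RPL21 it was -0.94, and for RPS10 and RPS18 -0.69 each. RPS3 was the opposite of its surroundings, at 2.30 among neighbours with a median of -1.31. Other called members also had the opposite sign, among them RPSA (-0.16, neighbours 0.71), RPL18 (-0.31, neighbours 0.49), RPS12 (-0.34, neighbours 0.52) and RPL39 (-0.34, neighbours 0.37). RPS28 (-0.88, neighbours -0.04) and RPL19 (-0.77, neighbours -0.23) shared the sign of theirs but not the size.

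**Figure D5:**
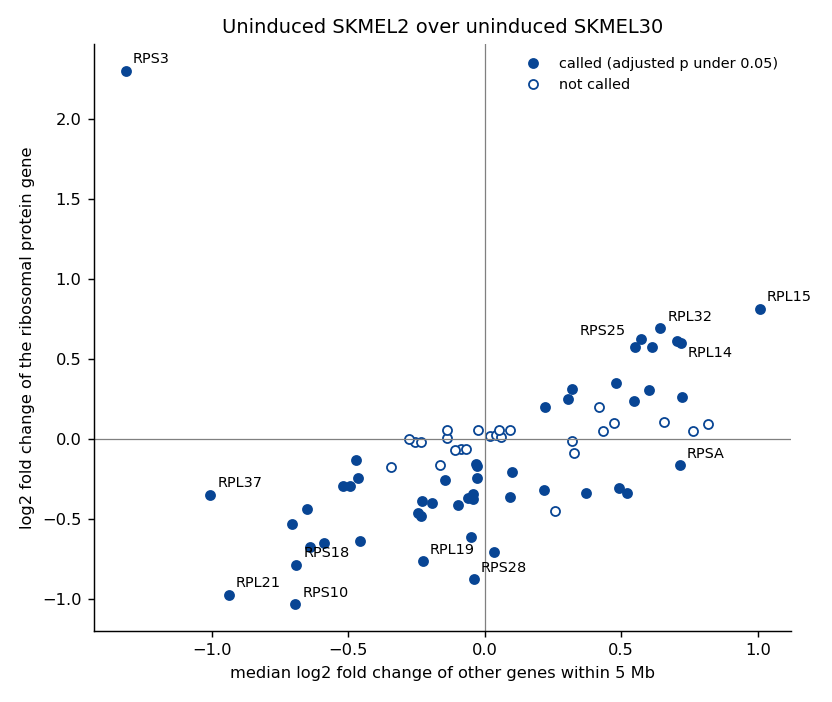
Log2 fold change of each member in uninduced SKMEL2 over uninduced SKMEL30 (y axis) against the median log2 fold change of the other genes within 5 Mb (x axis), filled where the member was called. Signs match for 61 of 76 members, and RPS3 stands alone at 2.30 with neighbours at -1.31.

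Paralogs and fusion genes outside the rule differed between the lines as well. Of 11 listed, 10 were tested between the uninduced lines, and edgeR called 4 higher and 4 lower in SKMEL2. Over all genes, 40.1% were called higher and 35.8% lower, so these counts were near the background. RPL22L1, the paralog of RPL22, averaged 149 ± 30.6 CPM against 24.5 ± 0.87 (SD, n = 3; 6.06-fold, log2 2.60 ± 0.14, adjusted p = 1.55e-12, edgeR), while RPL22 itself was lower. FAU, which encodes RPS30 fused to a ubiquitin-like protein, averaged 86.8 ± 10.8 CPM against 203 ± 4.67 (2.35-fold lower, adjusted p = 2.44e-09, edgeR). RPL10L, a copy of RPL10 best known from testis, had 6.59 ± 1.15 CPM in SKMEL2 and no count in the 3 uninduced SKMEL30 libraries, so it was at least 114-fold higher against a floor of 3 counts over that group (counting error only). RPL26L1 (0.40) and RPL36AL (0.22) were also higher and RPL7L1 (-0.41), RPS27A (-0.37) and RPS27L (-0.33) lower, while RPL39L (0.02) was not called. No gene of the list was called after induction in either line. The smallest p values there were those of RPS27L at 6 h (0.13) and RPL39L at 18 h (-0.19) in SKMEL30, with adjusted p = 0.562 and 0.337 by edgeR.

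Of the related lists, fewer respiratory chain genes were called higher than lower in uninduced SKMEL2 over SKMEL30 (7 and 48 of 73, median -0.33). The same held for mitochondrial ribosomal proteins (19 and 43 of 78, median -0.20), snoRNA host genes (2 and 10 of 12, -0.43) and proteasome subunits (8 and 16 of 37, 0.00). Over all genes, 40.1% were called higher and 35.8% lower. By direction alone, 17 proteasome subunits lay higher and 20 lower. The calls of other TOP mRNAs split evenly (12 and 13 of 30, 0.01). Ribosome biogenesis factors (29 and 22 of 59, 0.08) and mitochondrially encoded transcripts (6 and 3 of 15, 0.12) were more often called higher. After induction, 0 genes of these lists were called in either line at either time, except for mitochondrially encoded transcripts in SKMEL30, of which 6 were higher and 1 lower at both 6 h and 18 h. In SKMEL2 at 6 h, 64 of 73 respiratory chain genes lay higher (median 0.09), as did 33 of 37 proteasome subunits (0.06), 54 of 78 mitochondrial ribosomal proteins (0.04) and 21 of 30 other TOP mRNAs (0.03), while 38 of 59 biogenesis factors lay lower (-0.02), and none of these genes passed the adjusted threshold.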

How the data were processed

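The authors made paired-end libraries from poly(A) RNA (KAPA mRNA HyperPrep), and deposited 1 table of RSEM expected counts per gene for the 18 libraries, on GRCh38. The submitters' processing notes name cutadapt 1.5, Trimmomatic 0.36, STAR 2.2.2a, RSEM 1.3.0 and SAMtools 1.8. RSEM divides reads that fit several genes, and 51 of the 76 members had values that were not whole in all 18 libraries, which matters for genes with many pseudogenes. Here counts were rounded, filtered with filterByExpr (16120 genes in SKMEL2, 15026 in SKMEL30, 17133 in all, every member included), scaled with TMM factors and tested with edgeR 4.0.16 (quasi-likelihood, adjusted p under 0.05) in 9 libraries of a line, or in all 18 for comparisons between lines. DESeq2 1.42.0, size factors, library totals, no filter, a replicate block and leaving out each library were tried as alternatives. CPM values use TMM factors of all 18 libraries, and deviations a prior count of 0.5. A table of gene names gave a symbol for 55604 of the identifiers, GENCODE the coding lengths, and RefSeq the gene positions and start windows. The script was tested on simulated data. The main fits did not pair libraries by replicate number. Among same-number pairs, 2 of 9 in SKMEL2 and 1 of 9 in SKMEL30 correlated above 0.1. Pairs with different numbers are not given beside them, so this does not settle whether a number marks a shared batch.

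The members and lists were chosen with earlier results of these data known. Genes were named by rule: the 2 smallest p values in each comparison with uninduced cells, the 5 largest called differences between lines in each direction, the 3 highest and 3 lowest levels, 13 genes with other known roles, and the steadiest and least steady members. RPS12, RPS24, RPL26 and members under an unadjusted p of 0.05 were also named after their values were seen. Values of some single genes are not reported here.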

Additional observations from a re-analysis of the deposited data

Results flagged for a closer look

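At 18 h every library of one line lay on one side of its uninduced mean and every library of the other line on the opposite side for 10 of 76 members (13.2%), where 10.2% of all genes did so. At 6 h this held for 0 members, against 4.82% of all genes. The mean log2 differences at 18 h in SKMEL2 and SKMEL30 were 0.289 and -0.0333 for RPS28, 0.264 and -0.0694 for RPS21, 0.167 and -0.103 for RPS12, 0.138 and -0.0507 for RPL13, and 0.132 and -0.0341 for RPL10. They were 0.0827 and -0.0933 for RPS13, 0.0765 and -0.0613 for RPLP2, 0.0710 and -0.0500 for RPS18, 0.0528 and -0.0287 for RPL3, and, the other way round, -0.142 and 0.0674 for RPS24. The difference of the responses by edgeR passed the threshold for none of the 10, with adjusted p between 0.895 and 0.934. The uninduced SKMEL2 mean includes replicate 3, one of the libraries that stood apart. This replicate had the highest value of its group for RPS24. For every other gene named here (RPS28, RPS21, RPS12, RPL13, RPL10, RPS13, RPLP2, RPS18 and RPL3) it had the lowest.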

How the results depend on the processing

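The count of members called stayed at 0 in all 6 comparisons within a line and both differences of responses, except without the filter on low counts. Then edgeR called 1 member in SKMEL2 at 6 h (RPS29, log2 fold change 0.33, adjusted p = 0.00827, where 0.481% of all genes were called), 1 between 18 h and 6 h (RPL27, -0.28, adjusted p = 0.0184, 0.411%), 2 in the difference at 6 h (RPL27, 0.29, adjusted p = 0.0385, and RPS29, 0.36, adjusted p = 0.0131, 0.667%) and 1 at 18 h (RPS29, 0.32, adjusted p = 0.0443, 0.608%). The cause was not tested. Between uninduced lines 48 to 57 members were called over the alternatives. The median of that comparison was -0.043 with library totals alone and -0.095 with at least 10 counts in every library. A replicate block gave 0 calls in every comparison with induced cells and 49 between the lines, and changed no other call. Without mitochondrially encoded genes the share of counts was 3.99%, 4.16% and 4.03% in SKMEL2 (uninduced, 6 h, 18 h) and 3.91%, 3.91% and 3.88% in SKMEL30. With pseudogenes added it was 3.87% in SKMEL2 at 18 h and 3.76%, 3.76% and 3.72% in SKMEL30. Over only the 6 members with under 5% of values not whole it was 0.201%, 0.213% and 0.204%, then 0.191%, 0.189% and 0.188%. Leaving out 1 library gave mean correlations between members of 0.222 to 0.449 in SKMEL2 and 0.556 to 0.679 in SKMEL30. The range of library medians was then 0.149 to 0.227 in SKMEL2, against 0.204 with all libraries, and 0.0840 to 0.105 in SKMEL30, where library totals alone gave 0.0931. Without both SKMEL2 libraries that stood apart, an alternative chosen after seeing the data, the correlation was 0.523 and the range 0.154. Medians near 0 changed sign when 1 library was left out: they ran from -0.027 to 0.048 in SKMEL2 at 18 h, from -0.023 to 0.029 and from -0.027 to 0.015 in SKMEL30 at 6 h and 18 h, from -0.041 to 0.011 between 18 h and 6 h in SKMEL30, and from -0.012 to 0.069 for the difference at 18 h. The order of the mean shares of counts between the groups of a line also turned: 3.65% in SKMEL30 at 18 h without replicate 3 and 3.69% at 6 h without replicate 2, against 3.64% uninduced, and 3.79% in uninduced SKMEL2 without replicate 3, against 3.76% at 18 h. With 3 libraries a group, a median standard error of 0.0751 in SKMEL2 limits what could be detected there.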
